A study of Mus musculus with 21 samples.

Results

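Oprd1, Dscaml1, Gal3st2 and Gm16685 stood near 0 in immature and high in mature thymic conventional dendritic cells (cDCs). They were chosen by that pattern, selected on the normalized read counts of these same samples. Il7 was added because Gm16685 is annotated as its antisense partner. Together they are 5 of the 37734 genes in the deposited tables, and all 5 passed the filter on low values that left 14970 genes for testing. The contrast of mature with immature thymic cells chose 4 of them and is given for those as a description without a test. The filter asked for a value of 10 in 3 samples. Oprd1 reached it in 4 and Dscaml1 in 3 of the 14 immature samples, while Il7 did so in 2 and Gal3st2 and Gm16685 in none, so these last genes were tested only because of their mature samples. The Dscaml1 samples that reached it were all immature thymic cDC2, as were the Oprd1 samples apart from immature thymic cDC1 replicate 1. Contrasts of immature thymic cDC2 therefore use a filter that this group helped Dscaml1 and Oprd1 to pass. Results without a filter are given for Il7, and calls without a filter for Dscaml1 and Oprd1. Contrasts among immature samples are descriptions for Gal3st2 and Gm16685.

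The RNA came from C57BL/6 mice 6 to 8 weeks old, in pools of mice. cDCs were enriched with CD11c magnetic beads and sorted by flow cytometry into 6 groups. Within CD11c+ cells lacking B220, cDC1 were CD24+ and CD11b-, with cells bearing Ly6c, Ly6g, DX5 or F4/80 gated out, and cDC2 were CD11b+ and CD24-. Mature cells were CCR7+ Esam+, immature cells were CCR7- Esam-, and mature cells came from the thymus only. The groups were immature splenic cDC1 (5 libraries, n = 4 samples), immature thymic cDC1 (n = 4), mature thymic cDC1 (n = 3), immature splenic cDC2 (n = 3), immature thymic cDC2 (n = 3) and mature thymic cDC2 (n = 3).

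Oprd1 encodes the delta opioid receptor, a receptor of nerve cells that is activated by enkephalins and signals through inhibitory (Gi) G proteins and arrestins. Dscaml1 encodes a large adhesion molecule of the immunoglobulin superfamily, best known in the retina and brain, where cells that carry it recognise each other through the same molecule. Gal3st2 encodes a Golgi enzyme that places a sulfate on galactose at the end of sugar chains, using the sulfate donor that the Papss enzymes make. Il7 encodes interleukin-7, a survival factor of lymphocyte progenitors and naive T cells that is made in the thymus mainly by epithelial cells. Gm16685 is a noncoding RNA gene. CCR7, the receptor used to sort the mature cells, guides maturing dendritic cells to the chemokines of the thymic medulla and of lymph nodes.

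Read depth ran from 14266867 to 40119669 reads per library. Splenic cDC1 replicates 4 and 5 came from 1 pool and differed far less from each other (chi-square per degree of freedom 2.53) than the other pairs of their group (26.9 to 190.4), and they were averaged to 1 sample. Some pools supplied more than 1 sample, so p-values measure the spread between these samples, which may be technical. This also held within groups. Immature thymic cDC1 replicates 3 and 4 carry the same pool number, as do splenic cDC1 replicate 1 and the averaged sample. In these groups n counts samples and not pools. Ccr7 followed the sort, at 110227 ± 18494 (SD, n = 3) in mature and 714 ± 179 (n = 4) in immature thymic cDC1, and at 99928 ± 13553 (n = 3) and 3419 ± 682 (n = 3) in the cDC2 counterparts. The subset markers did not move as one: Xcr1 was at 19098 ± 2044 in immature and 440.3 ± 164 in mature thymic cDC1, but Batf3 at 1427 ± 292 and 4998 ± 611 and Irf8 at 54208 ± 3833 and 34273 ± 1504. In thymic cDC2, Cd209a was at 18624 ± 1356 and 142 ± 103, but Irf4 at 9459 ± 1211 and 8279 ± 731 and Sirpa at 15302 ± 1471 and 7413 ± 1730.2. All 6 mature samples were sequenced on lane 8, and the immature groups were spread over lanes 5 and 8.

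The genes lie on 4 chromosomes of the mm10 (GRCm38) assembly. Oprd1 (ENSMUSG00000050511) occupies chr4:132110726-132144486 on the minus strand, with 3 exon blocks and 4021 exonic bases. Dscaml1 (ENSMUSG00000032087) occupies chr9:45426628-45753712 on the plus strand, with 41 exon blocks and 8909 exonic bases. Gal3st2 (ENSMUSG00000094651) occupies chr1:93861306-93876494 on the plus strand, with 5 exon blocks and 3063 exonic bases. Gm16685 (ENSMUSG00000097804, chr3:7612705-7690001, plus strand, 1592 exonic bases) starts inside Il7 (ENSMUSG00000040329, chr3:7569994-7613760, minus strand, 5664 exonic bases) and runs away from it.

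RefSeq promoter sequences (GRCm38.p6) were at hand for 2 of the 5 genes, Oprd1 and Gal3st2. The 250 bases before each RefSeq start are shown because these genes moved together over the samples while their promoters differed in base composition. Capitals mark matches on either strand to an E-box (CACGTG) and to the kappaB motif of NF-kB in Oprd1, and to the interferon-stimulated response element in Gal3st2.
Oprd1, chr4:132144487-132144736, minus strand: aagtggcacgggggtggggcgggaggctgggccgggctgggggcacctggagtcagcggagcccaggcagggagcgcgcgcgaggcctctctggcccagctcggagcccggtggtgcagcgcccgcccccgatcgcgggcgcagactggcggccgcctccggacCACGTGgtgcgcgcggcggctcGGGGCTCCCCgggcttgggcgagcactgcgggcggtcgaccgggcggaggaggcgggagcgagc
Gal3st2, chr1:93861094-93861343, plus strand: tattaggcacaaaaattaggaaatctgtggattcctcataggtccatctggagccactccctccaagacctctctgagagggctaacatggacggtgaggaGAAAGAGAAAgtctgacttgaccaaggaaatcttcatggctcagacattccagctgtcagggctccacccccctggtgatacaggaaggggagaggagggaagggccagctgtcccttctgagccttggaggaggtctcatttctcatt
The Oprd1 promoter was 80.0% G or C and held 34 CG dinucleotides, and the Gal3st2 promoter was 51.6% G or C and held 1, against a median G or C content of 52.4% over all 32851 promoters. Of those promoters, 98.8% had a lower G or C content than Oprd1, and 8.79% had a lower observed-to-expected CG ratio than Gal3st2. The E-box, 86 bases before the Oprd1 start, is found in 6.02% of all promoters, and the kappaB motif, 64 bases before it, in 7.25%. The interferon-stimulated element, 149 bases before the Gal3st2 start, is found in 2.98%. Oprd1 also held 4 GC boxes (GGGCGG, found in 32.7% of promoters, not capitalised). Neither promoter held AP-1 (TGANTCA, 6.75% of promoters), the cyclic AMP response element (TGACGTCA, 1.55%), PU.1 (AGGAAGT, 7.69%) or the TATA box (TATAAA, 12.4%). The capitalised matches do not overlap each other, and a match describes letters only.

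Oprd1 was at 9484, 9518 and 9798 normalized reads in the 3 mature thymic cDC1 samples, and at 4653, 4438 and 4239.9 in the 3 mature thymic cDC2 samples. The mature replicates of each subset lay close together, with a coefficient of variation of 1.80% in cDC1 and 4.65% in cDC2, and the subsets did not overlap. In immature thymic cDC2 it was at 25.6, 10.7 and 12.5, from 24, 16 and 8 reads. In immature thymic cDC1 it was at 13.5, 0, 4.68 and 2.02. Of the 7 splenic samples, only the averaged cDC1 sample held any Oprd1 read, at 2.39 from 7 reads in its pair of libraries. The group means were 9600.2 ± 173 against 5.05 ± 5.96 in thymic cDC1, 1899-fold apart, and 4444 ± 207 against 16.3 ± 8.15 in thymic cDC2, 273-fold apart. Oprd1 ranked 580 among the 14970 tested genes by level in mature cDC1 and 1222 in mature cDC2. In bulk samples a larger share of cells that carry a transcript and more transcript per cell cannot be told apart, which holds for every level given here.

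Dscaml1 was at 4397, 4882 and 6424 in mature thymic cDC1 and at 7338, 7361 and 5822 in mature thymic cDC2, so its mature subsets overlapped. In immature thymic cDC2 it was at 14.9, 27.5 and 24.9, and in immature thymic cDC1 at 3.38, 2.50, 0 and 3.03. No read was found in any splenic cDC2 sample or in 3 of the 4 splenic cDC1 samples. The mature means were 5234 ± 1058 in cDC1 and 6840.4 ± 882 in cDC2, 2349.9-fold and 305-fold above the immature thymic means of 2.23 ± 1.53 and 22.4 ± 6.61. As levels per kilobase of exon, Dscaml1 stood at 587 ± 119 in mature cDC1 and 768 ± 99.0 in mature cDC2, below Oprd1 in both, which stood at 2388 ± 42.9 and 1105 ± 51.4.

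Gal3st2 was at 1523, 1399 and 1879.7 in mature thymic cDC1 and at 1416, 1429.6 and 1282 in mature thymic cDC2. No read was found in any of the 4 immature thymic cDC1 samples, and immature thymic cDC2 stood at 1.07, 4.02 and 1.56, from 1 to 6 reads. Taking for each library without a read the limit of 3 reads that a count of 0 allows, the mature cDC1 mean of 1600.3 ± 249.8 was at least 502-fold higher than the immature one. The mature cDC2 mean of 1376 ± 81.2 was 621-fold above an immature mean of 2.21 ± 1.58. Splenic means were 1.00 ± 1.80 in cDC1 and 0.848 ± 0.817 in cDC2. These limits cover counting error only.

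Gal3st2 has 2 near-copies beside it on chromosome 1, Gal3st2b and Gal3st2c, which the deposited tables carry under the older names Gm9994 and Gm6086. Its coding sequence was 98.7% identical to that of Gal3st2b, with 15 differing bases, and 98.0% identical to that of Gal3st2c, with 24. A stretch of 60 coding bases is shown to make that likeness visible, with the bases that set Gal3st2 apart from both copies in capitals.
Gal3st2, chr1:93874654-93874713: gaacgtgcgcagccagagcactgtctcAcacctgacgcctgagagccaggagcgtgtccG
Gal3st2b, chr1:93940804-93940863: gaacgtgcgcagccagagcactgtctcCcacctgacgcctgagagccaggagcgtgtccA
Gal3st2c, chr1:94009090-94009149: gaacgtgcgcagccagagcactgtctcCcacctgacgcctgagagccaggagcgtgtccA
Only 2 bases set Gal3st2 apart there. Of all stretches of 150 bases, the read length, in a Gal3st2 transcript, 57.8% recur in a transcript of a paralog, so the split of reads among the 3 genes is uncertain. The paralogs had the same pattern. Gal3st2b was at 252 ± 120 in mature and 0.669 ± 0.818 in immature thymic cDC1, and at 442 ± 63.2 and 1.94 ± 2.16 in cDC2. Gal3st2c was at 156 ± 36.2 in mature cDC1 with no read in immature cDC1, and at 385 ± 89.6 and 1.78 ± 2.53 in cDC2. Summed over the 3 genes, the mature samples stood at 2008 ± 399 in cDC1 and 2203 ± 65.1 in cDC2, and no immature group mean exceeded 5.94. Gal3st2 supplied 76.2% to 83.5% of that sum in mature cDC1 and 56.3% to 66.3% in mature cDC2, so its share was lower in every cDC2 sample than in every cDC1 sample.

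**Figure D1:**
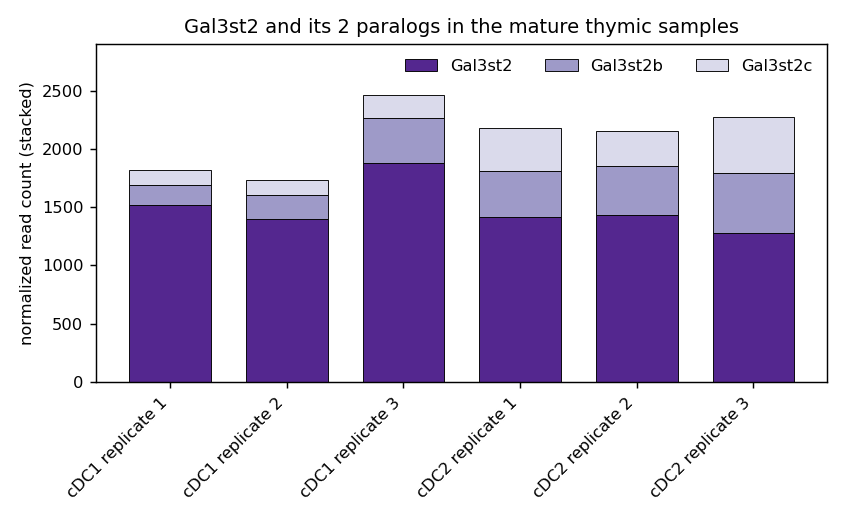
Stacked normalized read counts of Gal3st2, Gal3st2b and Gal3st2c in each of the 6 mature thymic samples (3 cDC1, 3 cDC2). Gal3st2 is the largest part in every sample, and its share of the sum is smaller in cDC2 (56.3% to 66.3%) than in cDC1 (76.2% to 83.5%).

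Gm16685 was at 1023, 1128 and 915 in mature thymic cDC1 and at 1199.9, 1336 and 1943 in mature thymic cDC2, and these subsets did not overlap. Among the immature samples it never exceeded 4.69, and none of the 4 splenic cDC1 samples held a read. The means were 1022 ± 106 against 2.09 ± 1.93 in thymic cDC1, 489-fold apart, and 1493 ± 396 against 2.08 ± 2.39 in thymic cDC2, 717-fold apart. Gm16685 has 3 exons, of 105, 152 and 1335 bases. Exon 1 lies wholly within Il7 exonic sequence on the other strand. Exons 2 and 3 start 49.9 and 74.9 kb beyond the outermost Il7 start, upstream of Il7, which is on the minus strand. Those 105 shared bases are 6.60% of the Gm16685 exons and 1.85% of the Il7 exons, as shares of length and not of reads. The libraries were made with a strand-specific kit, but the strand setting of the counting is not given in the sources used here, so reads from these bases cannot be assigned with certainty. Exon 2 is shown because it belongs to Gm16685 without any overlap with Il7.
Gm16685 exon 2, chr3:7663617-7663768, plus strand: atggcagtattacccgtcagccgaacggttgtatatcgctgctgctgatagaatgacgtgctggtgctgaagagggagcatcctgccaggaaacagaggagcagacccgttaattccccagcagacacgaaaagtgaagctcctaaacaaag

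**Figure D2:**
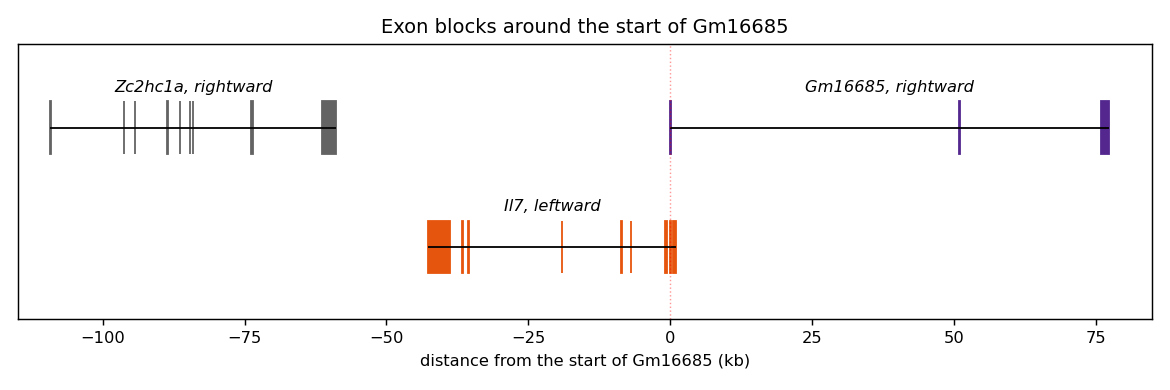
Exon blocks of the genes at the Gm16685 and Il7 locus, drawn to scale in kb, with the direction of transcription of each gene. The 105-base exon 1 of Gm16685 is its only exon that meets an Il7 exon, and exons 2 and 3 lie upstream of the Il7 start.

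Il7 counts rose with maturation in both thymic subsets. Reads from the 105 bases shared with Gm16685 cannot be assigned with certainty, and their part in this rise was not tested. Il7 was at 35.0, 97.0 and 72.8 in mature thymic cDC1, from 19 to 91 reads, and at 2.53, 5.83, 1.56 and 0 in immature thymic cDC1. The mature cDC2 samples stood at 102, 98.8 and 149.9 and the immature thymic cDC2 samples at 19.2, 12.7 and 7.79. Mature and immature groups did not overlap in either subset. The rise was 4.51 on the log2(value + 1) scale in cDC1 (SE 0.64, limma adjusted p = 3.84e-06) and 3.11 in cDC2 (SE 0.68, limma adjusted p = 0.000772). Without a filter the limma adjusted p was 1.66e-05 in cDC1 and 0.00222 in cDC2. Genes were called at an adjusted p under 0.1 with over a 2-fold difference, and the maturation contrasts called 45.7% of all tested genes in cDC1 and 35.6% in cDC2. On lane 8 alone the rises were 4.62 in cDC1 and 3.40 in cDC2. An exact two-sided permutation test over samples gave p = 0.0571 in cDC1 and p = 0.1 in cDC2, the smallest values these numbers of samples allow. The difference between the rises was -1.40 (cDC2 minus cDC1, SE 0.93) and did not pass the test (limma adjusted p = 0.357), in a comparison that called 13.6% of tested genes.

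Il7 was a low transcript beside Gm16685. As levels per kilobase of exon it stood at 12.1 ± 5.52 in mature cDC1 and 20.6 ± 5.05 in mature cDC2, against 642 ± 66.8 and 938 ± 249 for Gm16685. The ratio of Gm16685 to Il7 per kilobase lay between 41.4 and 48.1 in 5 of the 6 mature samples and was 104 in mature cDC1 replicate 1, where Il7 rested on 19 reads.

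Some markers of other thymic cells moved with the Il7 rise. All 8 thymic epithelial markers were detected in each thymic group, and their summed level was 607 to 711 in immature and 1807 to 2603 in mature cDC1, and 3511 to 3880.1 in immature and 3841 to 4894 in mature cDC2, where the ranges overlapped. Without Aire, the sum of the other 7 was lower in mature cells, at 585 to 705 in immature and 256 to 550.1 in mature cDC1, and at 3492 to 3819 and 691 to 1034 in cDC2. Epcam was the largest part of that sum and carried its fall. Aire was at 10.3 ± 8.80 in immature and 1793 ± 252 in mature cDC1, and at 43.4 ± 21.6 and 3408 ± 586 in cDC2, while Epcam was at 581 ± 66.2 and 158 ± 62.9 in cDC1 and at 3516 ± 174 and 385 ± 46.6 in cDC2. Foxn1, the defining transcription factor of thymic epithelium, was at 1.28 ± 1.06 and 5.80 ± 5.45 in immature and mature cDC1. Krt5 was at 22.1 ± 3.06 and 98.6 ± 56.7 there. Krt8, Krt14 and Cldn4 also had higher means in mature cDC1, while Psmb11 had a lower one. In cDC2 every marker of the list apart from Epcam had a higher mean in mature than in immature cells. Krt5 was at 32.5 ± 12.3 and 175 ± 63.0 in immature and mature cDC2, and Krt8 at 42.1 ± 8.28 and 180 ± 67.1. The summed level of 8 thymocyte and T cell markers was 166 to 236 in immature and 1319 to 2437 in mature cDC1, and 171 to 287 and 747 to 1210.4 in cDC2, with 1 marker without a read in immature cDC1 and none in the other thymic groups. The part of these cells in the Il7 result was not tested. Of 8 neural and neuroendocrine markers, 3 were without a read in mature cDC1 and 2 in mature cDC2. Their summed level was 24.3 to 72.0 in mature cDC1 and 50.2 to 95.4 in mature cDC2, the groups in which no Oprd1 or Dscaml1 value was under 4239.9.

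**Figure D3:**
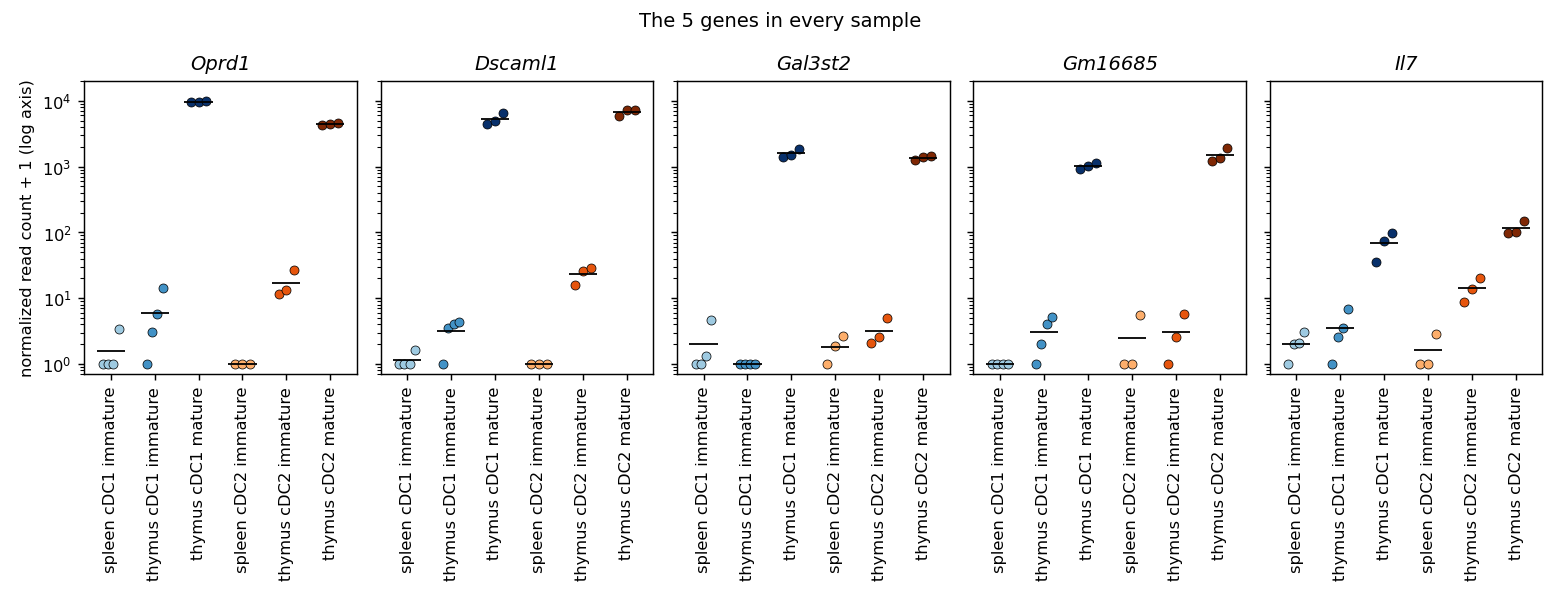
Normalized read count plus 1 on a log axis for each of the 20 samples, 1 panel per gene, with samples as points by group. Oprd1, Dscaml1, Gal3st2 and Gm16685 are at 915 or more in all 6 mature samples and at 27.5 or less in every immature sample, while Il7 spans 35.0 to 149.9 in mature and 0 to 19.2 in immature samples.

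Between the mature subsets, mean levels were higher in cDC1 for Oprd1 and Gal3st2 and higher in cDC2 for Dscaml1, Gm16685 and Il7. None of the 5 passed the limma test, in a comparison that called 18.9% of tested genes. The mature samples took part in choosing all but Il7, so p-values of this contrast are not independent of that choice. For Oprd1 the difference was -1.11 on the log2 scale (cDC2 minus cDC1, SE 0.69, limma adjusted p = 0.270) although its mature samples did not overlap. That standard error comes from all 6 groups. With the mature groups fitted alone the limma adjusted p was 0.00195, the edgeR quasi-likelihood test on recovered reads gave 0.0311, and the DESeq2 Wald test gave 0.359. The other differences were 0.86 for Il7 (SE 0.68), 0.52 for Gm16685 (SE 0.72), 0.40 for Dscaml1 (SE 0.49) and -0.21 for Gal3st2 (SE 0.57), with limma adjusted p from 0.399 to 0.836. The value for Gal3st2 turned to 0.15 when its paralogs were added to it. The mature samples of the subsets overlapped for Dscaml1 and Gal3st2 and did not for Gm16685 and Il7. With 3 against 3 samples, a full separation gives p = 0.1 by the exact permutation test, the smallest value possible. How many of all tested genes have groups that do not overlap was not counted, in this or any other contrast.

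Among immature thymic cells, Dscaml1, Il7 and Oprd1 were called higher in cDC2 than in cDC1, in a comparison that called 16.4% of tested genes, 11.0% in that direction. The rule had asked for low values in both groups, so the p-values of Dscaml1 and Oprd1 here are not independent of that choice. The differences were 3.02 for Dscaml1 (SE 0.46, limma adjusted p = 4.14e-05), 2.26 for Il7 (SE 0.64, adjusted p = 0.0124, and 0.0291 without a filter) and 2.02 for Oprd1 (SE 0.65, adjusted p = 0.0279). Gal3st2 had 8 reads over the 3 cDC2 samples and none in cDC1, and Gm16685 stood at 2.08 ± 2.39 in cDC2 and 2.09 ± 1.93 in cDC1. Dscaml1 and Oprd1 were also called without a filter. The samples did not overlap for Dscaml1 and Il7 and overlapped for Oprd1, where 1 immature cDC1 sample reached 13.5. The Oprd1 call was lost without immature thymic cDC2 replicate 1 (1.66, limma adjusted p = 0.144), without immature thymic cDC1 replicate 2 (1.36, adjusted p = 0.104), by the DESeq2 Wald test (adjusted p = 0.181), with a pseudocount of 0.1 (limma adjusted p = 0.113), with only those groups fitted (adjusted p = 0.142), and with a pseudocount of 8, where the difference was 0.95. On lane 8 alone the Il7 call was lost (2.08, limma adjusted p = 0.125).

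Markers of mature cDCs moved the same way between the immature thymic subsets. The summed level of 8 of them was 49410 to 65015 in immature thymic cDC2 and 23100 to 27098 in immature thymic cDC1, with none at 0 reads, and their part in the result was not tested. As a share of the mature level of the same subset, Oprd1, Dscaml1, Gal3st2 and Gm16685 stood at 0 to 0.204% in immature thymic cDC1 and at 0.139% to 0.366% in immature thymic cDC2. For Ccr7 these shares were 0.648% and 3.42%, for Fscn1, an actin-bundling protein of mature cDCs, 0.207% and 2.59%, and for Il7 3.63% and 11.3%.

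**Figure D4:**
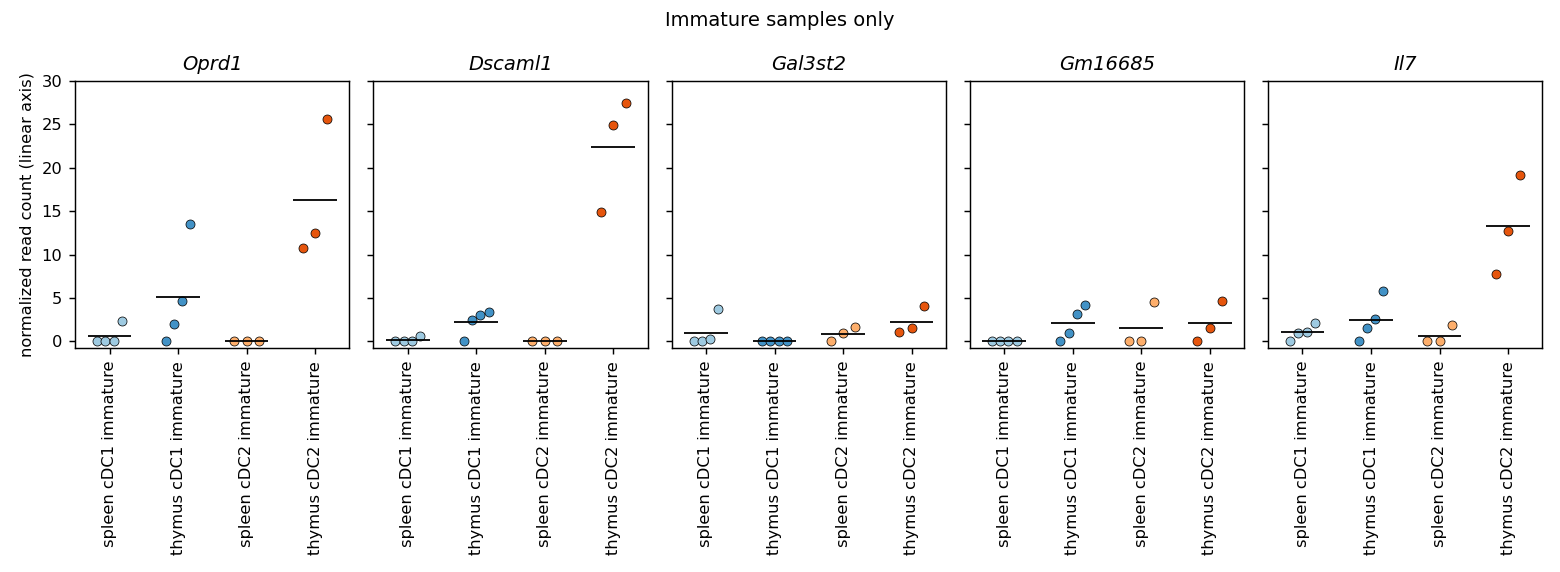
Normalized read counts in the immature samples, 1 panel per gene, with samples as points by group. Dscaml1, Oprd1 and Il7 have their highest means in immature thymic cDC2, at 22.4, 16.3 and 13.2, while Gal3st2 and Gm16685 are at 4.69 or less in every sample.

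Between tissues, 3 of the 5 genes were called higher in immature thymic than in immature splenic cDC2, in a comparison that called 14.2% of tested genes, 8.30% in that direction. They were Dscaml1 (4.51, SE 0.49, limma adjusted p = 1.21e-06), Oprd1 (4.01, SE 0.69, adjusted p = 0.000244) and Il7 (3.25, SE 0.68, adjusted p = 0.00159), and for each the lowest thymic sample exceeded the highest splenic one. Without a filter the limma adjusted p for Il7 was 0.00437, and Dscaml1 and Oprd1 were also called. No splenic cDC2 sample held a Dscaml1 or Oprd1 read, so the sizes of their differences depend on the pseudocount. Over the alternatives the difference ran from 1.90 to 7.77 for Dscaml1, 1.55 to 7.25 for Oprd1 and 1.27 to 5.54 for Il7. Markers of other cells and of maturation differed between these groups too. The summed level of the 8 thymic epithelial markers was 96.1 to 156 in splenic and 3511 to 3880.1 in thymic cDC2, with 4 of them at 0 reads in the spleen. Most of it was Epcam, at 107.8 ± 38.1 in splenic and 3516 ± 174 in thymic cDC2. Every other marker of that list averaged 43.4 or less in thymic cDC2. The summed level of the 8 thymocyte and T cell markers was 28.1 to 80.5 in splenic and 171 to 287 in thymic cDC2. Of the mature cDC markers, Ccl22 was at 218 ± 103 in splenic and 15572 ± 3575 in thymic cDC2 and Fscn1 at 662 ± 336 and 3603 ± 905. Cd40 and Marcksl1 also had higher means in thymic cDC2. Relb (7452 ± 2700 in splenic and 2805 ± 280 in thymic cDC2), Cd83 (35574 ± 921 and 22089 ± 3765), Cd80 and Ccr7 had lower means there. The sum of all 8 markers was 50103 to 64468 in splenic and 49410 to 65015 in thymic cDC2. Their part in the result was not tested. In cDC1 only Dscaml1 was called (1.31, SE 0.43, limma adjusted p = 0.0491), in a comparison that called 8.77% of tested genes, 4.26% in that direction. It rested on 10 reads in the 4 thymic samples against 2 in the spleen. That call was lost on lane 8 alone (0.92, limma adjusted p = 0.494), with only those groups fitted (adjusted p = 0.142), with no filter and with a pseudocount of 8. It was also lost without splenic cDC1 replicate 1 or 2 or thymic cDC1 replicate 1, 2 or 4 (limma adjusted p 0.107 to 0.153). The thymus-spleen difference of Dscaml1 was 3.20 larger in cDC2 than in cDC1 (SE 0.65, limma adjusted p = 0.00450), where 4.98% of tested genes were called. It was also called by limma without a filter, ran from 1.59 to 5.18 over 11 alternatives, and was not called by edgeR (adjusted p = 0.153). For Il7 the corresponding value was 2.68 (SE 0.90, limma adjusted p = 0.110) and for Oprd1 2.46 (SE 0.91, adjusted p = 0.163). Between splenic cDC2 and cDC1, Oprd1, Dscaml1 and Il7 were not called by limma, edgeR or DESeq2, where limma called 16.6% of tested genes. No splenic sample exceeded 4.58 for any of the 5.

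The other genes of each pathway were counted from lists, against a median over all tested genes of -0.04 (log2) in cDC1 and 0.04 in cDC2 for mature minus immature thymic cells. Of all tested genes, 21.3% were called higher and 24.5% lower in mature cDC1, and 18.6% and 17.0% in mature cDC2. No other opioid receptor and no opioid peptide came near the level of Oprd1 in mature cells. Of 10 receptor, peptide and peptidase genes 3 could be tested, and none of the other 7, among them the receptors Oprm1, Oprk1 and Oprl1 and the enkephalin precursor Penk, exceeded 8.67 in any sample. Ece1, a peptidase, was at 18805 ± 1752 in immature and 9677 ± 2330 in mature cDC1, and Ogfr, the opioid growth factor receptor, which is unrelated to the opioid receptors proper, at 4276 ± 791 and 3633 ± 721. None of the 3 was called in cDC1 (median -0.24). In cDC2 (median -0.01) only Pomc, the precursor of beta-endorphin, was called, at 8.32 ± 4.42 in immature and 34.4 ± 5.41 in mature cells (2.01, SE 0.91, limma adjusted p = 0.0760).

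The signalling partners of opioid receptors moved both ways. Of 15 Gi protein, arrestin and receptor kinase genes 13 were tested, and 4 rose and 4 fell in cDC1 (median -0.19) while 4 rose and 2 fell in cDC2 (median 0.00). Called higher in both subsets were the G protein beta subunit Gnb4 (3.43 in cDC1 and 4.51 in cDC2), Arrb2, which encodes beta-arrestin 2 (1.48 and 1.13), the inhibitory alpha subunit Gnai3 (1.17 and 1.21) and the receptor kinase Grk5 (1.33 and 1.47). Called lower in both were Arrb1, which encodes beta-arrestin 1 (-3.63 and -1.85), and the gamma subunit Gng2 (-4.91 and -3.04). Gnao1 and Grk6, named after their values were seen, fell in cDC1 (-3.57 and -1.08). Gnai2, another inhibitory alpha subunit, was at 17723 ± 2711 in immature and 15323 ± 2842 in mature cDC1 and was not called.

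Of 23 adhesion genes of the DSCAM type and related neuronal families 7 were tested, and 3 rose and 1 fell in cDC1 (median 0.93) while 4 rose and none fell in cDC2 (median 2.44). Nrcam, a neuronal adhesion molecule, had no read in immature cDC1 and was at 11.4 ± 13.8 in mature cDC1, and went from 0.356 ± 0.616 to 153 ± 26.9 in cDC2 (6.90, SE 0.68, limma adjusted p = 5.52e-08). Dscam, the closest relative of Dscaml1, was at 43.5 ± 25.4 and 144 ± 61.8 in immature and mature cDC1 and at 161 ± 27.4 and 1213 ± 73.3 in cDC2, and both differences were called (2.00 and 2.92). Unlike Dscaml1 it was high in the spleen, at 2019 ± 257 in splenic cDC2. L1cam was called in cDC1 (1.68). Chl1, which rose in cDC2 (2.44), and Sdk1, which fell in cDC1 (-3.05), are named after their values were seen.

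Of 23 genes of galactose and carbohydrate sulfation 15 were tested, and 9 rose and 2 fell in cDC1 (median 1.58) while 7 rose and none fell in cDC2 (median 0.90). Papss2, which makes the sulfate donor, was at 44.3 ± 8.90 in immature and 8901 ± 874 in mature cDC1, and at 463 ± 14.9 and 10571 ± 1009 in cDC2 (7.64 and 4.51). Papss1, which makes the same donor, fell in cDC1 (-1.66). The carbohydrate sulfotransferases Chst3 (7.79 and 7.06), Chst7 (3.90 and 2.40), Chst11 (1.58 and 3.45) and Chst15 (2.19 and 2.31) rose in both subsets, as did Gal3st2b (7.28 and 7.53) and Gal3st2c (7.27 and 7.48), which share reads with Gal3st2. Both paralogs are part of the counts and medians above, and Gal3st2 itself was chosen by this contrast.

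Of 19 genes of the interleukin-7 receptor and common gamma chain family 15 were tested, and 11 rose and 1 fell in cDC1 (median 3.69) while 8 rose and none fell in cDC2 (median 1.22). Il7r, the interleukin-7 receptor chain, was at 24.5 ± 14.4 in immature and 1187 ± 328 in mature cDC1, and at 1183 ± 166 and 7395 ± 1759 in cDC2 (5.67 and 2.63). Il15, a related survival cytokine, rose by 3.28 and 4.14 on the log2 scale, and its presenting receptor chain Il15ra by 5.84 and 5.94. The receptor chains Il2ra (7.50 and 6.21), Il9r (7.33 and 7.20), Il21r (7.62 and 2.96) and Il4ra (4.25 and 1.94) and the kinase Jak3 (1.03 and 1.15) also rose in both subsets.

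**Figure D5:**
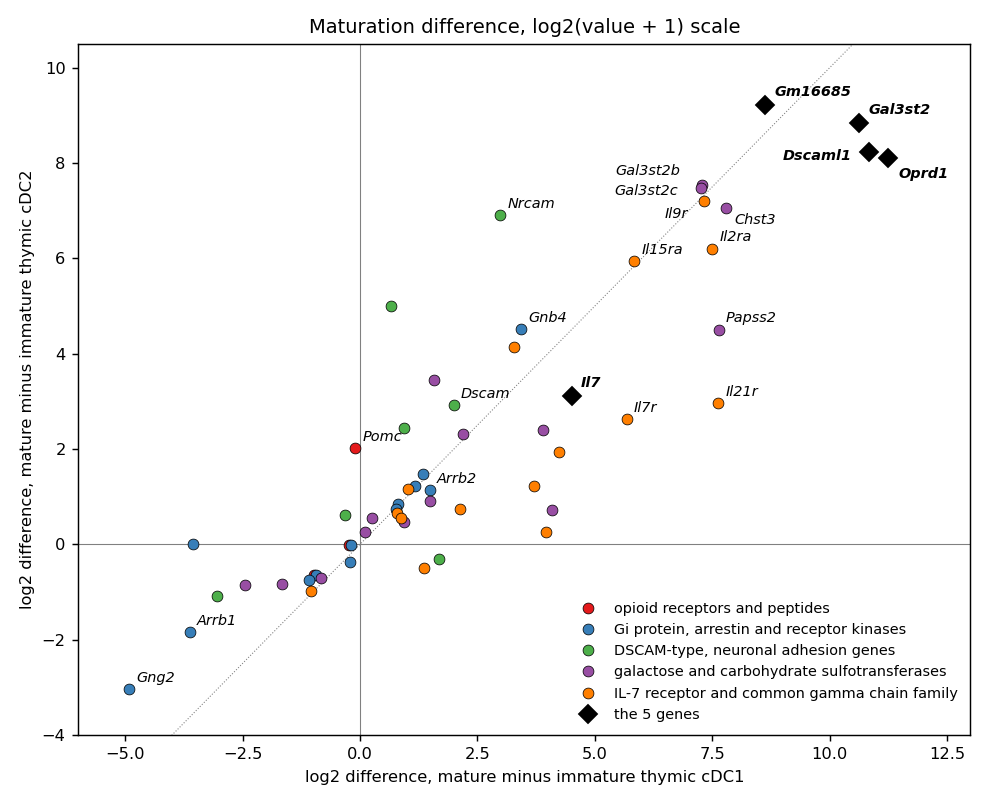
Mature minus immature difference on the log2(value + 1) scale in thymic cDC1 (horizontal) and cDC2 (vertical), with tested genes of the 5 lists as coloured points, the members as black diamonds and equal differences on the dotted line. The list medians run from -0.24 (opioid genes) to 3.69 (interleukin-7 receptor family) in cDC1 and from -0.01 to 2.44 in cDC2.

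The genes whose log2 values followed each member most closely over the 20 samples were named by Pearson's r, as a description. All these samples share the contrast of mature with immature cells. Oprd1 was followed most closely by Insm1 (r = 0.990), a transcription factor of neuroendocrine cells, then by Itgb8, Il23r, Adcy6 and Idh1. Dscaml1 was followed by Il18bp (r = 0.992), Crispld2, Adcy6, Spata31d1b and Insm1, and Gal3st2 by Ndnl2 (r = 0.992), Tnfrsf4, Tspan3, Atp11a and Extl1. Gm16685 was followed by Hgd (r = 0.985), Rnf19a, Myh7, Cdk5r1 and Ndnl2, and Il7 by Cx3cl1 (r = 0.964), Chmp4c, AK129341, Tnfrsf9 and Foxh1. Among the members themselves r ran from 0.882 (Gal3st2 with Il7) to 0.982 (Oprd1 with Dscaml1).

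A mean of at most 10 in both immature thymic groups and at least 100 in both mature groups was found for 63 of the 14970 tested genes (0.421%). Gal3st2 and Gm16685 were among them, while Oprd1 and Dscaml1 missed the limit through immature thymic cDC2 means of 16.3 and 22.4. Of the 63, 54 were also at or under 10 in both splenic groups. By the lower of the mature means, Insm1 led (3522 ± 92.3 in cDC1 and 4422 ± 366 in cDC2), followed by Gal3st2 and Gm16685, then by Gm11435, Wbscr27, Cdh2, Hecw2, Gm20465, Chst3 and Fah. Cdh2, which encodes N-cadherin, was at 1247 ± 86.2 and 855 ± 243.

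Within 200 kb of the 5 genes the annotation holds 70 neighbours, of which 32 were tested, and 11 were called higher and 2 lower in mature cDC1, 8 higher and 2 lower in mature cDC2, the paralogs of Gal3st2 included. Over all tested genes 21.3% were called higher in mature cDC1 and 18.6% in mature cDC2. Beside Il7, 16.2 kb away, Zc2hc1a went from 130 to 1261 in cDC1 and from 259 to 1265 in cDC2 (3.27 and 2.29). Near Dscaml1, 16.4 kb away, Fxyd2, a regulator of the sodium pump, was called in both subsets (3.55 and 3.88). Tmem200b, 187.6 kb from Oprd1, was called in both (6.40 and 5.14). The tested gene nearest to Oprd1, the pseudogene Gm13215 at 3.93 kb, was called in neither (0.94 and -0.81).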

How the data were processed

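RNA from sorted cDCs was sequenced as 21 libraries. Per the labels and the study's methods, the authors aligned reads to mm10 with STAR 2.6, counted them per gene with HTSeq-count and normalized them with DESeq2 1.24.0. The deposited values are a signal on this scale, normalized read counts, each a read count divided by the library's size factor. The strand setting and annotation release are not given in the sources used here. Whole reads were recovered for 100% of values (within 0.001), which gave the depth of each library, 14266867 to 40119669 reads. Depth limits the low values: 3 reads, the limit set by a count of 0, were worth about 3.19 in immature thymic cDC1.

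The main test was limma 3.58.1 (R 4.3.3, lmFit and eBayes with trend) on log2(value + 1) over 6 groups and 20 samples, for the 14970 genes that reached 10 in 3 or more samples, with Benjamini-Hochberg adjustment over all of them. A call needed an adjusted p below 0.1 and more than a 2-fold change. Fold changes on this scale understate the change of low genes. edgeR 4.0.16 (quasi-likelihood) on recovered reads called 6732 genes with maturation in cDC1, where limma called 6848, and 5352 against 5329 in cDC2. DESeq2 1.42.0, other pseudocounts, filters and sets of samples, and leaving out each sample were alternatives. The fits were tested on simulated data. Exact permutation tests covered single values (27 in the family). The members and lists were chosen with earlier results of these data known. Named by rule were the members, the Gal3st2 paralogs, the 5 closest followers of each member and the 10 leading genes with the same on-off pattern. Neighbours were drawn from those within 200 kb. In each list the genes called in both subsets were named, with some but not all of those of highest mean. Grk2, Grk3, Gnb1, Slc35b2 and Nlgn2, of high mean and called with maturation in neither subset, were left out above. Positions came from a GRCm38 annotation, which held 37607 of the 37734 gene identifiers, and paralogs were aligned with MAFFT 7.526. The main fit did not pair samples by pool number. Same-pool correlations of deviations ran from -0.150 to 0.461 and those of different pools from -0.492 to 0.258. These ranges overlap, and fits with the pool number as a block are given below.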

Additional observations from a re-analysis of the deposited data

Results flagged for a closer look

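In 3 of 8 groups of 4 samples examined, 1 splenic cDC1 sample had a large gap to the others relative to the range of the group. Chance gives this in about 1 in 20 groups of continuous values, a rate that does not hold for counts of 0 to 7 reads: with 3 samples at 0, any read in the fourth gives the largest possible gap. Oprd1 was at 2.39 and Dscaml1 at 0.637 in splenic cDC1 replicate 4, the averaged pair of libraries, with no read in the other 3 samples. Gal3st2 was at 3.69 in splenic cDC1 replicate 3, from 4 reads.

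The difference of Dscaml1 between thymus and spleen was larger in cDC2 than in cDC1, by 3.20 on the log2 scale (SE 0.65, limma adjusted p = 0.00450). Over 11 alternatives this value ran from 1.59 to 5.18, and edgeR did not call it (adjusted p = 0.153). Dscaml1 was higher in all 3 immature thymic than in all 3 splenic cDC2 samples, and had 10 reads over the 4 thymic cDC1 samples.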

How the results depend on the processing

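The rise of Il7 with maturation passed the test under all 11 alternatives (2.80 to 5.63 in cDC1, 2.57 to 3.40 in cDC2) and without each sample in turn (4.01 to 4.94 and 2.80 to 3.40), and the difference between these rises passed under none of them. Between the mature subsets, the count of genes called went from 0 to 1, Oprd1, with edgeR (TMM or RLE factors), a pseudocount of 8 or only the groups compared. Gal3st2 and Gm16685, described only among immature samples, are left out of the counts for immature contrasts. Between thymic and splenic cDC1, Dscaml1 stayed called with edgeR (TMM or RLE) and DESeq2. The count there went from 1 to 0 with a pseudocount of 8, no filter, only the groups compared, or lane 8 alone. It was also 0 with the filter of 10 in at least 10 samples. Leaving out 1 sample gave 0 to 2. Between splenic subsets it stayed at 0. Between immature thymic subsets Oprd1 was lost with DESeq2, a pseudocount of 0.1 or 8, or only the groups compared, and Il7 with lane 8 alone. Under the stricter filter only Oprd1 could be tested there. The same filter took thymic against splenic cDC2 from 3 to 1. Stricter limits of 5 and 500 left 8 of the 63 on-off genes. Summing Gal3st2 with its paralogs, an alternative chosen after seeing the data, turned its mature subset difference from -0.21 to 0.15 (limma adjusted p = 0.886). The cause of these changes was not tested. With the pool number as a replicate block, 0 genes were called between splenic subsets, as in the same samples without it. Between immature thymic subsets Dscaml1, Il7 and Oprd1 were called with the block. In the same samples without the block Oprd1 was lost (limma adjusted p = 0.142).

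Levels under about 5 rest on a handful of reads, and the immature contrasts compare such levels. All mature samples came from lane 8, and mature splenic cells were not analysed here.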
